A study of Mus musculus with 6 samples.

Results

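The transcripts of the hypoxia inducible factor (HIF) system and of erythropoietin were measured in mouse kidneys with and without deletion of the transferrin receptor TfR1. The set held 10 genes of the 24422 in the count tables, chosen by name, with earlier results of these data known. They were the 3 alpha subunits Hif1a, Epas1 (HIF-2alpha) and Hif3a, their partner Arnt, the prolyl hydroxylases Egln1, Egln2 and Egln3, the asparaginyl hydroxylase Hif1an, the ubiquitin ligase subunit Vhl, and the hormone gene Epo. Poly-A RNA was sequenced from whole kidneys of C57BL/6 mice at postnatal day 13, all on a diet with 220 ppm iron, in 3 Control and 3 TfR1 knockout libraries. The labels give the Control genotype as wild type and the knockout genotype as Tfr1f/f;SixCre, and the study's methods describe a floxed TfR1 gene deleted with Six2CreEGFP. This Cre is active in the progenitors that form the nephron and not in the ureteric bud, stroma or endothelium, so those cells kept the receptor gene, and the study also reports tubule cells that escaped deletion. The strain is C57BL/6 in both groups, and no other allele or agent is named for them.

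HIF is a transcription factor made of an oxygen-sensitive alpha subunit and the stable partner Arnt. The Egln enzymes hydroxylate prolines of the alpha subunit using oxygen, iron and 2-oxoglutarate, the Vhl ligase then marks the hydroxylated protein for destruction, and Hif1an blocks binding of coactivators by hydroxylating an asparagine. These steps act on protein, whereas the values here are transcript levels. Hif3a is itself induced by HIF and yields isoforms of which some restrain the other alpha subunits. In the kidney Epo is made by interstitial fibroblast-like cells, mainly under HIF-2alpha, and drives the production of red blood cells.

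Total gene counts ran from 16591156 to 22898008 per library. Values below are normalized counts, that is raw counts divided by a library's size factor, and differences are log2 fold changes of TfR1 knockout over Control from DESeq2, with a gene called where the p adjusted over every gene tested was under 0.05. All 10 kidney epithelial markers examined were detected in every group. Of these 6 were lower and 1 higher in the knockout, beside 7.18% and 7.74% of all genes tested. The targeted gene Tfrc did not check the labels, with overlapping groups, 5229 ± 1434 normalized counts in Control and 5640 ± 1482 in knockout libraries (SD, n = 3 each; DESeq2 adjusted p 0.853). Control replicate 3 stood apart from the other Control libraries in several results below. Its summed level of epithelial markers was 93928 against 191215 and 199744 normalized counts. Its summed level of fibroblast markers, most of it from collagen genes, was 139994 against 71625 and 69262. Xist counts were high in 2 Control libraries and 1 knockout library and low in the other libraries, so the sexes were not balanced between groups, and a covariate for this split changed no call among the 10 genes. Nothing in the labels says that the kidneys came from separate litters, so p-values measure the spread between these libraries.

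Of the 10 genes, 2 passed the test, Hif3a higher and Epo lower in knockout kidneys, beside 14.9% of all 16509 genes tested. Both also changed by at least 2-fold, which 8.87% of all tested genes did with a call, and edgeR called 1 of the 9 genes it tested, Hif3a, beside 6.02% of its 15308 genes. The other 8 did not pass, and for all 8 the 95% interval of the change lay within 2-fold in either direction, as it did for 60.8% of all tested genes that did not pass. The values of the groups did not overlap for 4 of the 10 genes, with Hif3a and Egln2 above and Hif1a and Epo below, beside 33.7% of all tested genes. Both shares over the set were therefore near those over all genes, and the results rest on single genes. Every result below is from whole kidneys, where fewer cells of a type and less RNA per cell cannot be told apart.

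**Figure D1:**
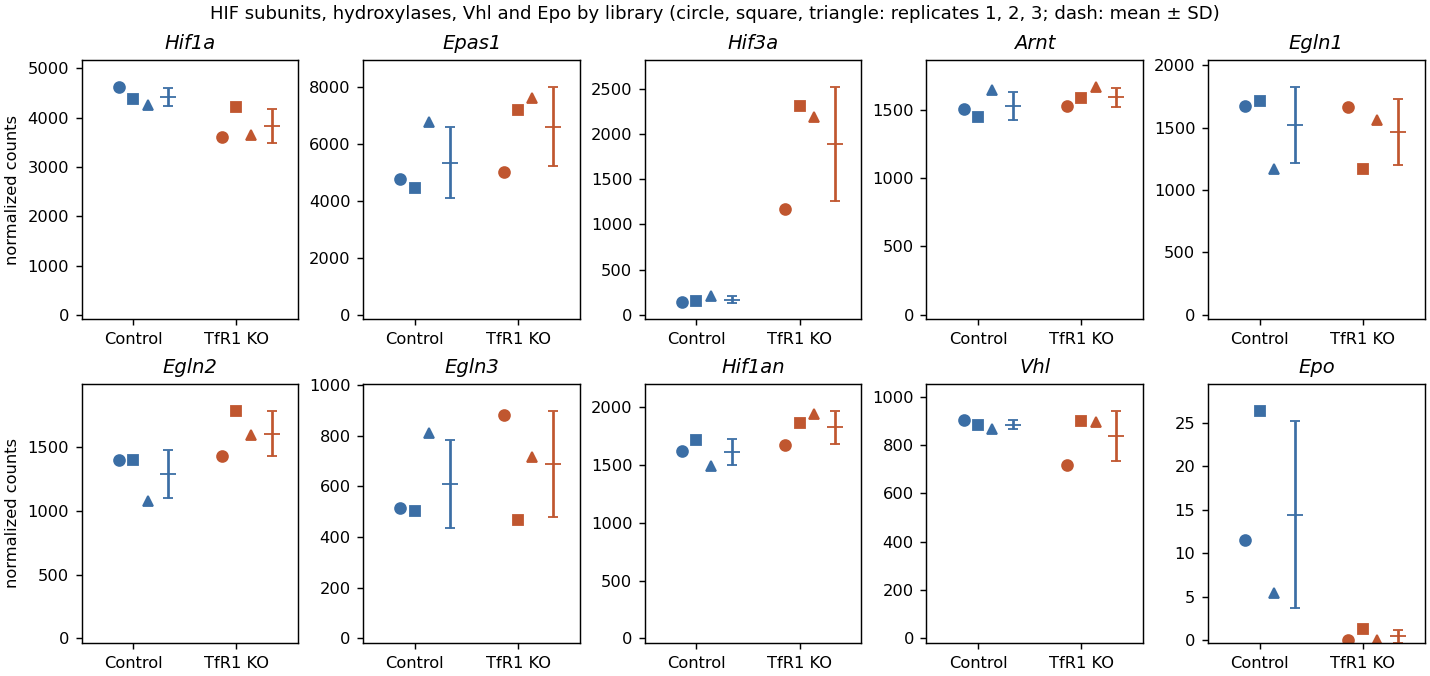
Normalized counts of the 10 genes in each library, with Control in blue and TfR1 knockout in orange, replicates 1 to 3 as circle, square and triangle, and the mean ± SD beside them. Each panel has its own linear axis that includes 0. Hif3a sits between 143 and 209 in Control libraries and between 1171 and 2311 in knockout libraries, and Epo is at or near 0 in every knockout library.

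Hif3a, the alpha subunit with a restraining role in some of its isoforms, showed the largest rise of the set. It lies on the minus strand of chromosome 7 at 17616856 to 17647776 (mm9, NCBIM37). Control replicates 1 to 3 held 143, 153 and 209 normalized counts and knockout replicates 1 to 3 held 1171, 2311 and 2193. The lowest knockout library stood above the highest Control library by several fold, and knockout replicate 1 was the lowest of its group. The means were 168 ± 35.7 and 1892 ± 626 (SD, n = 3 each), an 11.3-fold rise (log2 fold change 3.49, SE 0.31, DESeq2 adjusted p 5.0e-26). edgeR's quasi-likelihood test also called it, with a log2 fold change of 3.48 and an adjusted p of 0.0027. Leaving out each library in turn moved the DESeq2 value only between 3.33 and 3.75. Among the 12095 tested genes that averaged 100 normalized counts or more, Hif3a ranked 26 from the highest log2 fold change.

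The upstream sequence of Hif3a is printed because it is the gene that rose most, and because HIF binds a short core that can be searched for there. Below are the 250 bases before the annotated start of the longer Hif3a transcripts, read on the minus strand from NCBIM37 at chr7:17647777-17648026, 5′ to 3′, with matches to the core GCGTG in capitals, of which the first is on the opposite strand and reads CACGC.
Hif3a promoter: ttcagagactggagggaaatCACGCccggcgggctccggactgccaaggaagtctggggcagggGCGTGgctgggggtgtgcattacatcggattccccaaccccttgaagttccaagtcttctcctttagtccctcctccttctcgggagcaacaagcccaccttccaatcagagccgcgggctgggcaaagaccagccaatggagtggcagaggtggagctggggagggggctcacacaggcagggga
The matches begin 230 and 186 bases before the start. The core ACGTG had 0 matches in this window. Over 32851 RefSeq promoter windows of 250 bases (GRCm38.p6), searched on both strands, GCGTG was found in 28.2%, ACGTG in 16.6% and either in 38.6%, so a match of this length is common. The annotation also gives Hif3a a second start, of a transcript that ends at 17642028 on the 5′ side, and the counts per gene do not separate the isoforms.

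The other alpha subunits did not pass the test. Hif1a, on chromosome 12 at 75002362 to 75048517, had 4616, 4377 and 4253 normalized counts in Control libraries and 3615, 4219 and 3650 in knockout libraries. Its groups did not overlap, by a narrow gap between Control replicate 3 and knockout replicate 2. The log2 fold change was −0.21 (95% interval −0.49 to 0.07, DESeq2 adjusted p 0.360), and it passed only when libraries were scaled by total counts (−0.32, adjusted p 0.0356), a scaling that moved the median of all genes by −0.104. Hif1a shares 330 exon bases with the antisense gene Gm15283, and the strand setting of the counting is not given in the sources used here. Epas1, on chromosome 17 at 87153247 to 87232750, had 4780, 4458 and 6767 normalized counts in Control libraries and 5023, 7171 and 7605 in knockout libraries. Its groups overlapped, because Control replicate 3 was above knockout replicate 1. The log2 fold change was 0.31 (95% interval −0.19 to 0.80, DESeq2 adjusted p 0.456), and 0.51 without Control replicate 3, again not passing.

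Levels of different genes were compared per kilobase of the longest coding transcript. In Control kidneys Epas1 had 1005 ± 236 and Hif1a 935 ± 39.1 normalized counts per kilobase, with overlapping ranges, and Hif3a had 26.3 ± 5.57. In knockout kidneys Hif3a reached 295 ± 97.9, still below Hif1a at 810 ± 71.8 and Epas1 at 1243 ± 260 (SD, n = 3 each). Hif3a made up 1.17%, 1.33% and 1.48% of the 3 alpha subunits in Control replicates 1 to 3. In knockout replicates 1 to 3 it made up 9.66%, 13.9% and 13.4%. The share was higher in every knockout library, with means of 1.33% ± 0.152 and 12.3% ± 2.31 and an exact permutation p of 0.1, the smallest that 3 against 3 libraries allow. The share of Hif1a went from 48.0% ± 6.25 to 35.0% ± 5.07, and that of Epas1 from 50.7% ± 6.12 to 52.7% ± 3.22. Within a library the Epas1 to Hif1a ratio was 0.921, 0.906 and 1.42 in Control and 1.24, 1.51 and 1.85 in knockout kidneys. The ratio of Control replicate 3 fell among the knockout values, and the log2 difference of 0.52 had an exact two-sided permutation p of 0.2.

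**Figure D2:**
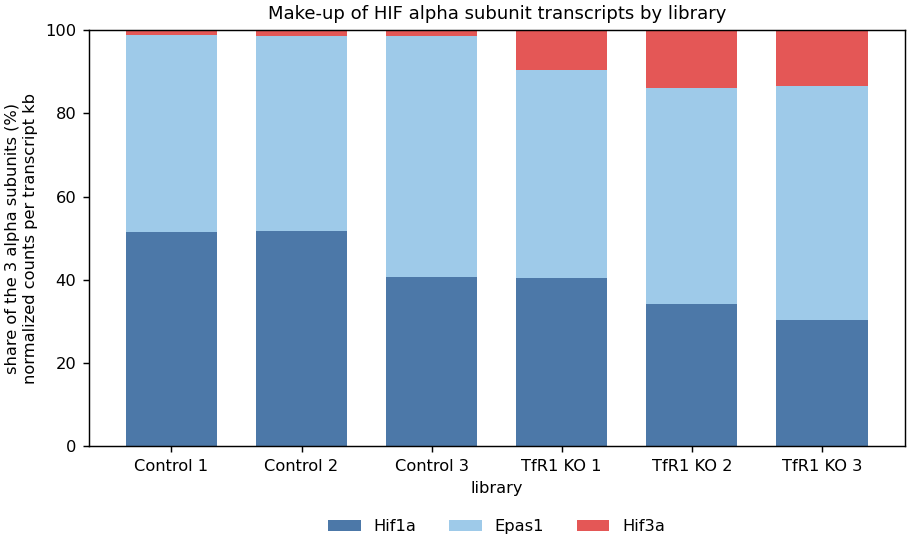
Share of each alpha subunit among Hif1a, Epas1 and Hif3a in every library, in percent of normalized counts per kilobase of the longest coding transcript. The Hif3a segment is at most 1.48% in Control libraries and at least 9.66% in knockout libraries.

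Arnt, the usual partner with which the alpha subunits bind DNA, was close between groups. It lies on chromosome 3 at 95238310 to 95301162 and had 1501, 1442 and 1643 normalized counts in Control libraries and 1522, 1585 and 1662 in knockout libraries. The ranges overlapped, with Control replicate 3 inside the knockout range and the other Control libraries below it, and the log2 fold change was 0.06 (95% interval −0.22 to 0.33, DESeq2 adjusted p 0.837), with the sign turning to −0.05 under total-count scaling. Of the 6 other partners and coactivators examined, all measured, 1 was higher in the knockout and 0 lower, beside 7.74% and 7.18% of all genes tested. That gene was Cited4, a coactivator-binding protein, at 91.5, 74.5 and 38.8 normalized counts in Control and 302, 320 and 273 in knockout libraries. Every knockout library of Cited4 was above every Control library (log2 fold change 2.12, SE 0.33, DESeq2 adjusted p 1.7e-08, edgeR adjusted p 0.0159). Ep300, the acetyltransferase that HIF recruits, had a log2 fold change of 0.31 with groups that did not overlap (DESeq2 adjusted p 0.217). Crebbp, its relative, had 0.41 (adjusted p 0.295) and Arntl, another partner of the same protein family as Arnt, 0.22 (adjusted p 0.660) in the DESeq2 fit.

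None of the hydroxylases passed the test. Egln1, the main oxygen sensor of most tissues, lies on chromosome 8 at 127432496 to 127473154 and had 1675, 1716 and 1172 normalized counts in Control and 1664, 1166 and 1563 in knockout libraries. One library in each group was low, Control replicate 3 and knockout replicate 2, and the groups overlapped. The log2 fold change was −0.06 (95% interval −0.52 to 0.41, DESeq2 adjusted p 0.914), and its sign turned in 3 of the 6 fits that left out a library. Egln2, on chromosome 7 at 27943677 to 27951821, had 1396, 1396 and 1072 normalized counts in Control and 1430, 1781 and 1595 in knockout libraries. Every knockout library was above every Control library, though replicate 1 only by a little, and the log2 fold change of 0.31 did not pass (95% interval −0.06 to 0.69, DESeq2 adjusted p 0.286). Egln3, the prolyl hydroxylase most strongly induced by HIF, lies on chromosome 12 at 55279968 to 55304847. It had 516, 504 and 809 normalized counts in Control and 883, 467 and 715 in knockout libraries. The highest Control library exceeded 2 of the 3 knockout libraries, so the groups overlapped. The log2 fold change was 0.18 (95% interval −0.44 to 0.79, DESeq2 adjusted p 0.766), 0.43 without Control replicate 3 and −0.04 without knockout replicate 1. Hif1an, on chromosome 19 at 44637340 to 44650764, had 1616, 1715 and 1492 normalized counts in Control and 1669, 1863 and 1942 in knockout libraries, which overlapped (log2 fold change 0.18, 95% interval −0.11 to 0.48, DESeq2 adjusted p 0.459).

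The ratio of Egln3 to Egln1, an inducible against a more constant hydroxylase, was 0.407, 0.387 and 0.912 in Control and 0.701, 0.529 and 0.604 in knockout libraries (counts per kilobase). Control replicates 1 and 2 were the lowest of the 6 and Control replicate 3 the highest. The log2 difference between group means was 0.21 with an exact two-sided permutation p of 0.7, and it was 0.61 without Control replicate 3, where all knockout values were above the 2 Control values that remained. Among the 3 Egln genes, Egln2 took 47.8% ± 3.00 of the counts per kilobase in Control and 53.2% ± 8.52 in knockout kidneys. Egln1 took 33.8% ± 4.06 and 28.9% ± 3.87, and Egln3 18.4% ± 7.04 and 17.9% ± 4.71, and the libraries of the groups overlapped for each of the 3.

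Both Egln1 and Egln3 hold the core ACGTG upstream, printed here because Egln3 in particular is a textbook HIF target whose level did not pass the test. Each stretch is 40 bases on the minus strand of NCBIM37, Egln1 at chr8:127473201-127473240 and Egln3 at chr12:55305069-55305108, with the match in capitals.
Egln1 promoter: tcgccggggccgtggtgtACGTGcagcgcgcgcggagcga
Egln3 promoter: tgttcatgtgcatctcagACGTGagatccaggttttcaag
Counted from the RefSeq starts, the matches begin 68 bases before Egln1 and 229 bases before Egln3, whose RefSeq start lies upstream of the GENCODE start at 55304847. Of the members with a RefSeq promoter entry, Hif1a held 3 ACGTG matches, 2 of them overlapping on opposite strands, Arnt 1 GCGTG match, Epo 2 GCGTG matches (240 and 204 bases before the start) and Egln2 matches to both cores, and Egln1 held a GCGTG match as well (126 bases before the start), while Vhl and Hif1an held 0 of either.

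Vhl, the subunit that recognises hydroxylated HIF, lies on chromosome 6 at 113573953 to 113581627. Its normalized counts were 904, 883 and 865 in Control and 718, 899 and 896 in knockout libraries. Only knockout replicate 1 stood away from the rest, and without it the sign turned from −0.08 to 0.02. The DESeq2 adjusted p over all libraries was 0.812, with a 95% interval of −0.41 to 0.25 on the log2 scale. A list of 7 other genes held subunits of the same ligase and the Ube2d conjugating enzymes that work with ligases. Of these 7, 0 passed in either direction in DESeq2 or edgeR, beside 14.9% and 6.02% of all genes tested. Their median log2 fold change was 0.06 against 0.01 over all genes tested, and 0 had an unadjusted p under 0.05 in either tool. The nearest to passing were Tceb1 (elongin C, −0.17, adjusted p 0.475), Ube2d3 (a conjugating enzyme, 0.22, adjusted p 0.481) and Cul2 (the cullin scaffold, 0.15, adjusted p 0.510) in the DESeq2 fit, followed by Tceb2 (elongin B, 0.15, adjusted p 0.617).

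**Figure D3:**
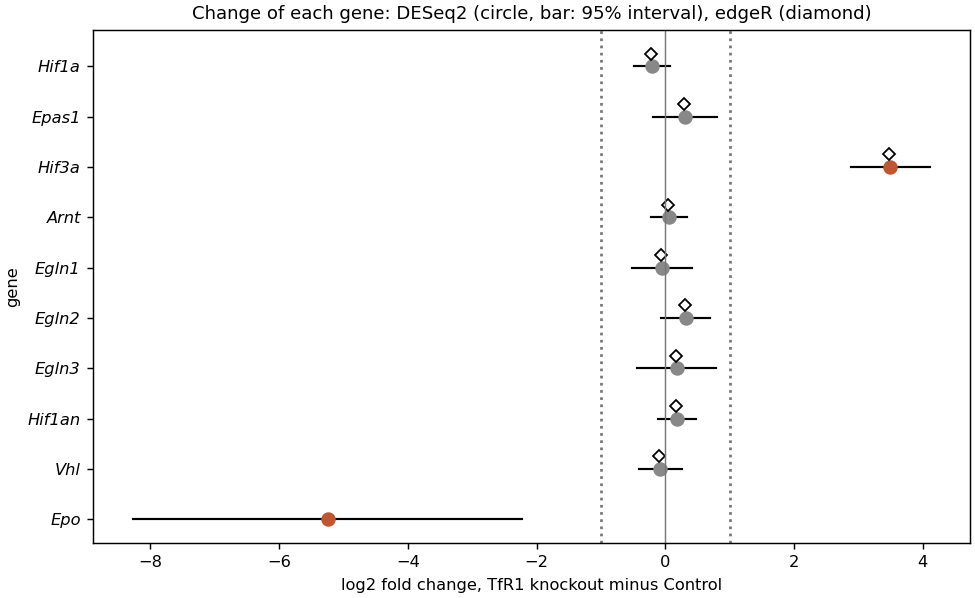
Log2 fold change of the 10 genes, TfR1 knockout minus Control. Circles are DESeq2 values with their 95% intervals, orange where the adjusted p was under 0.05, diamonds are edgeR values, and the dotted lines mark 2-fold. Hif3a (3.49) and Epo (−5.25, from 48 against 1 raw counts) lie outside the dotted lines and the other 8 intervals lie within them; edgeR's low-count filter gave Epo no value.

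**Figure D4:**
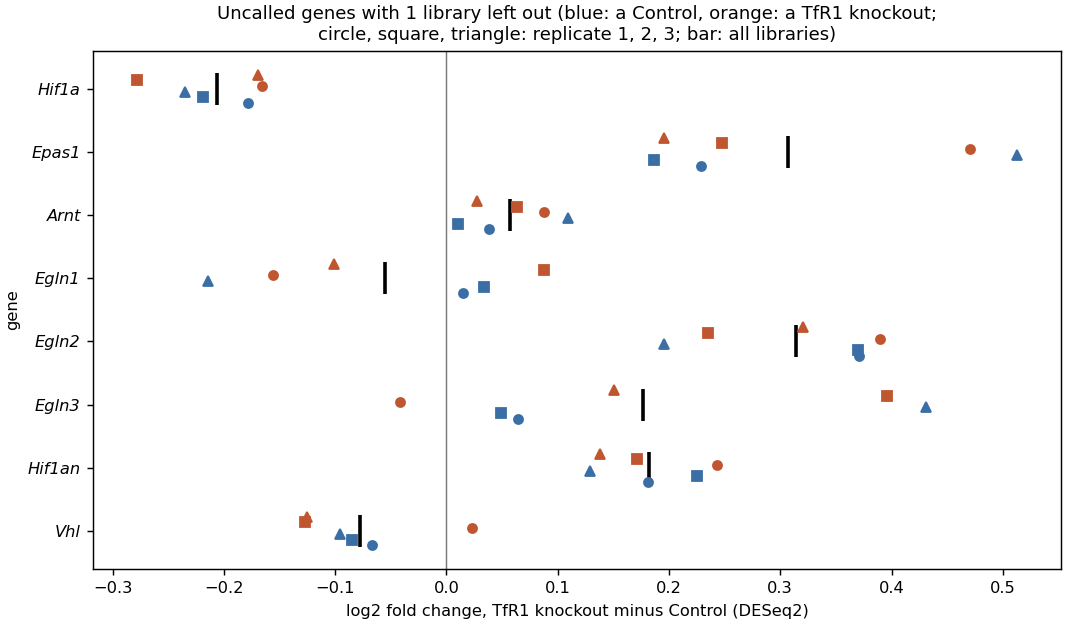
DESeq2 log2 fold change of the 8 genes that did not pass, with all libraries (black bar) and with 1 library left out (blue for a Control, orange for a knockout library; circle, square and triangle for replicates 1 to 3). Egln1, Egln3 and Vhl cross 0, and Epas1 ranges from 0.19 to 0.51.

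Epo was counted in all Control libraries and was nearly absent from the knockout libraries. Control replicates 1 to 3 held 14, 29 and 5 raw counts and knockout replicates 1 to 3 held 0, 1 and 0. Every Control library was above every knockout library, and Control replicate 2 held more than the other Control libraries together. In CPM, raw counts scaled by the library total, with exact binomial (Clopper-Pearson) 95% intervals that cover counting error only, the Control libraries had 0.611 (0.334 to 1.03), 1.37 (0.915 to 1.96) and 0.301 (0.0979 to 0.703). Knockout replicate 2 had 0.0572 (0.00145 to 0.319), and the counts of 0 in knockout replicates 1 and 3 allow up to 0.155 and 0.150 CPM, taken as 3 counts. The exact upper limits of knockout replicates 1 and 3 were 0.190 and 0.185 CPM. The interval of Control replicate 3 overlapped those of all 3 knockout libraries. Pooled by group, 48 counts stood against 1. Scaled by the summed size factors of each group, not by library totals, the ratio of Control to knockout was 42.1. Its 95% counting interval was 7.21 to 1698.

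The fitted change of Epo passed in DESeq2 (log2 fold change −5.25, SE 1.54, adjusted p 0.00803), but this value depends on how counts near 0 are treated, and shrinkage brought it to −1.02. Without knockout replicate 3 the adjusted p was 0.0766 (−4.65), and without Control replicate 2 the gene received no adjusted p, with 19 counts left against 1. edgeR with its usual filter removed Epo, and with no filter gave −4.94 with an adjusted p of 0.0444. The direction was the same in every fit that gave a value. The study also reports kidney Epo expression as lower in this knockout than in wild type littermates. Epo lies on the minus strand of chromosome 5 at 137923487 to 137974470 and shares 104 exon bases with Gnb2 on the same strand, so reads there could not be assigned to either by strand.

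An enhancer with a HIF site lies beyond the end of Epo and is printed because the gene was almost silent in the knockout libraries. Whether this element acts in kidney cells was not tested. The window of 120 bases is on the minus strand at chr5:137923301-137923420 (NCBIM37), with the HIF core ACGTG and 2 half-sites TGACC of a direct repeat in capitals.
Epo downstream: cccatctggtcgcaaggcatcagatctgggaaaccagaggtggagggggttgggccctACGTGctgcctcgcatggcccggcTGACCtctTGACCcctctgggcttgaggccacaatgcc
The core begins 124 bases past the annotated transcript end and is part of TACGTGCT. The window was placed by searching the 500 bases past that end for this word, so its presence was fixed in advance. In the 250-base promoter windows, a different kind of region, TACGTGCT was found in 0.177% and TGACC in 35.2%. No binding was measured in these libraries.

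Genes tied to Epo control and to the cells that make Epo moved in different directions. Of 4 genes for its regulators and receptor, 1 was higher and 0 were lower in DESeq2, beside 7.74% and 7.18% of all genes, and edgeR called 0. The higher gene was Gata3, which encodes a GATA factor of the collecting duct lineage, at 720, 699 and 464 normalized counts in Control and 1122, 1070 and 1066 in knockout libraries (log2 fold change 0.79, DESeq2 adjusted p 0.00517, edgeR adjusted p 0.0537). Gata2, an inhibitor of Epo transcription, had 0.06 (adjusted p 0.920), Hnf4a, which binds the repeat of the enhancer, −0.24 (adjusted p 0.693), and Epor, the receptor, 0.49 (adjusted p 0.455) in the DESeq2 fit. Of 10 interstitial fibroblast markers, 1 was higher and 2 were lower, beside 7.74% and 7.18% of all genes. Nt5e, a surface enzyme of the fibroblasts that can make Epo, had 760, 959 and 457 normalized counts in Control and 1369, 2469 and 2032 in knockout libraries (log2 fold change 1.43, DESeq2 adjusted p 4.0e-04, edgeR adjusted p 0.0408). Among Control libraries, Nt5e and Cspg4 were lowest in replicate 3, where the other markers on this list were highest. Nt5e therefore did not follow most of the list, and which cells carried its rise was not tested. Pdgfrb, a receptor that marks stromal cells and pericytes, had 0.29 with overlapping groups (DESeq2 adjusted p 0.548). The lower genes were the matrix genes Lum (−2.05, adjusted p 0.00323) and Col3a1 (−1.15, adjusted p 0.0249), neither called by edgeR, and the fourth smallest adjusted p was that of Col1a2 (−0.74, adjusted p 0.148). The summed level of all 10 fibroblast markers was 69262 to 139994 normalized counts in Control and 39906 to 69438 in knockout libraries. Most of this sum came from the matrix genes Col1a1, Col1a2 and Col3a1. Their means were 16418, 26440 and 35739 in Control and 11711, 15845 and 16112 in knockout libraries. The sum is therefore mainly a measure of matrix transcripts. The part of these cells in the Epo result was not tested.

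Among erythroid genes, Alas2, the first enzyme of heme synthesis in red cells, ranged from 1571 to 4879 normalized counts in Control and from 1222 to 5399 in knockout libraries (log2 fold change −0.03, DESeq2 adjusted p 0.982). The globin genes Hba-a1, Hba-a2, Hbb-b1 and Hbb-b2 are listed at 0 counts in every library. Reads matching several near-identical genes were not counted, but whether this alone gives counts of 0 was not tested. The globin genes therefore give no measure of blood in the samples.

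Other genes that act on the stability of HIF mostly did not pass. Of 9 such genes 1 was higher, beside 7.74% of all genes tested. It was Hsp90ab1, a chaperone that holds HIF alpha subunits. Hsp90ab1 had 22662, 23288 and 17951 normalized counts in Control and 30792, 33996 and 33722 in knockout libraries. Its groups did not overlap (log2 fold change 0.62, DESeq2 adjusted p 0.0031), and edgeR did not call it (adjusted p 0.114). Wsb1, a ligase subunit that acts on Vhl, had 0.41 (adjusted p 0.393), Siah1a, a ligase that acts on the Egln proteins, 0.37 (adjusted p 0.394), and Gnb2l1 (Rack1), which binds HIF-1alpha, 0.30 (adjusted p 0.456) in the DESeq2 fit. The iron regulatory proteins, of which Aco1 can repress translation of Epas1 when iron is scarce, did not pass either. Aco1 had a log2 fold change of 0.14 (DESeq2 adjusted p 0.785) and Ireb2 0.22 (adjusted p 0.567), each with overlapping groups.

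Downstream of the 10 genes, 25 HIF target genes were examined, of which 24 could be tested. Eno1 had too few counts, at most 5 in a library. Whether leaving out reads that match several near-identical genes lowered it was not tested, so its level is not known here. The list of targets was chosen with earlier results of these data known. The study reports Edn1, Eno2 and Hk2 as higher in this knockout, so the counts of targets below are a description. In DESeq2 9 targets were higher and 1 lower in knockout kidneys and 14 did not pass, beside 7.74% higher and 7.18% lower among all genes. The median log2 fold change was 0.73, against 0.01 over all genes, and edgeR called 3 higher and 1 lower, beside 3.22% and 2.8%. Eno2, a glycolytic enolase, had 96.5, 108 and 146 normalized counts in Control and 390, 411 and 409 in knockout libraries (log2 fold change 1.79, DESeq2 adjusted p 2.0e-12). Hk2, the inducible hexokinase, had 188, 170 and 156 in Control and 1242, 546 and 735 in knockout libraries (2.30, adjusted p 2.8e-10), with knockout replicate 1 the highest. Edn1, the vasoconstrictor endothelin, had 110, 132 and 135 in Control and 452, 820 and 479 in knockout libraries (2.22, adjusted p 1.4e-11). Car9, a carbonic anhydrase often used as a HIF-1 marker, moved the other way, with 139, 126 and 117 normalized counts in Control and 30.8, 57.6 and 32.2 in knockout libraries (−1.69, adjusted p 3.9e-05). For these 4 genes the groups did not overlap and edgeR also called each, at adjusted p values from 0.00694 to 0.029.

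Among the 24 targets, knockout replicate 1 was the highest of its group for 15 and the lowest for 8, and it was the lowest of its group for 7 of the 9 members other than Epo, Hif3a among them. Control replicate 3 was the lowest of its group for 17 of the 24 targets and the highest for Hif3a. Markers of other cell types also moved. Of 10 macrophage markers 7 were higher and 0 lower in DESeq2, beside 7.74% and 7.18% of all genes tested. edgeR called 6 of them higher, beside 3.22% of the genes it tested. Their summed levels were 2748 to 4485 normalized counts in Control and 7992 to 10067 in knockout libraries. The 4 macrophage markers with the smallest adjusted p were Lyz2 (1.81), Itgam (2.44), Cd14 (3.08) and Cd68 (1.52), given as log2 fold changes. Of 10 endothelial markers 1 was higher, Flt1 (0.95, DESeq2 adjusted p 0.0251), beside 7.74% of all genes tested, and edgeR did not call it. The summed level of the endothelial markers was 28307 to 44660 in Control and 30091 to 38863 in knockout libraries. Among the epithelial markers Slc5a2 (−5.12) and Umod (−3.65) were lower and Aqp2 (2.74) was higher on the log2 scale. The part of any of these cell types in the Hif3a result or in the target genes was not tested.

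**Figure D5:**
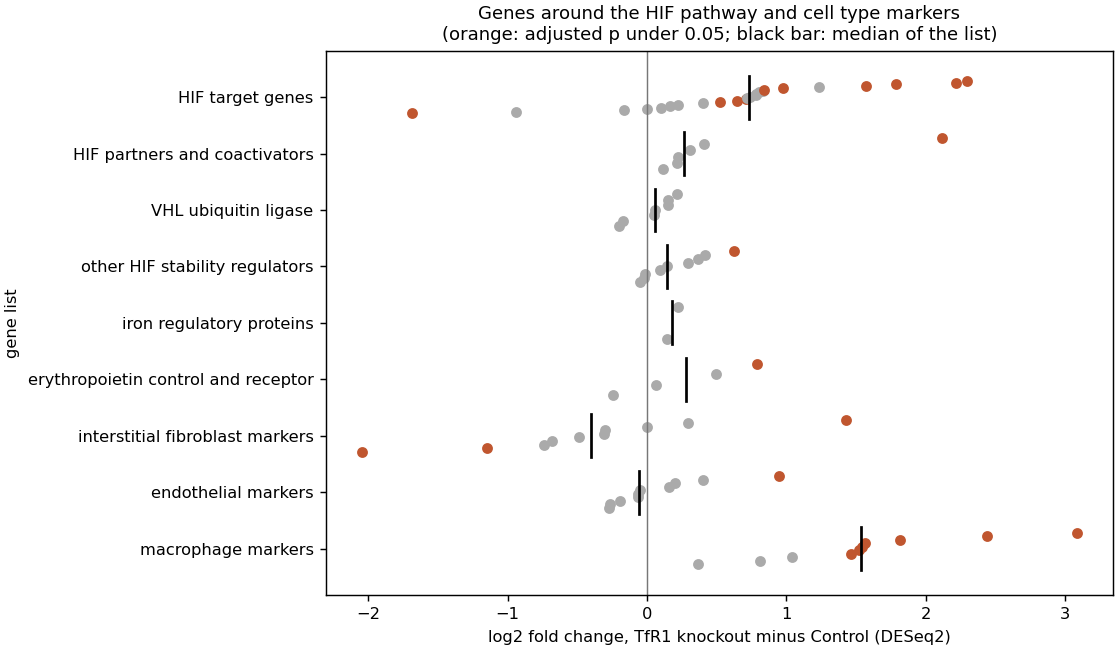
DESeq2 log2 fold change, TfR1 knockout minus Control, of every tested gene on 9 lists around the HIF pathway. Orange points had an adjusted p under 0.05 and black bars are list medians. HIF targets have a median of 0.73 with 1 gene far below 0 (Car9), and macrophage markers a median of 1.53.

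Ordered by level per kilobase in Control kidneys, the 10 genes ran Epas1, Hif1a, Egln2, Egln1, Arnt, Vhl, Hif1an, Egln3, Hif3a and Epo, from 1005 down to 8.86 normalized counts per kilobase. Within this order the ranges over libraries overlapped for Epas1 and Hif1a, for Egln1 and Arnt, and for Hif1an and Egln3. In knockout kidneys Hif3a moved from place 9 to place 7, at 295 ± 97.9, where its range overlapped those of its neighbours Vhl (300 ± 37.2) and Hif1an (295 ± 22.7). The ranges of Hif1a and Egln2, of Egln1 and Arnt, and of Hif1an and Egln3 also overlapped there. Epo stayed at the end of the order at 0.262 ± 0.453. With the union of all annotated exons as the length, Hif3a came to place 5 in knockout kidneys and Arnt fell to place 9.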

How the data were processed

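RNA from 3 Control and 3 TfR1 knockout kidneys was sequenced as poly-A, single-end libraries. The authors processed reads with CASAVA 1.8.2, trimmed them with Trimmomatic, aligned them with TopHat2 2.0.11 to mm9 and deposited unnormalized counts, made per gene by HTSeq from uniquely aligned reads. The HTSeq version, annotation and strand setting are not given in the sources used here. Unique counting lowers genes with near-identical copies.

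The members and lists were chosen with earlier results of these data known. All 24422 genes were fitted with DESeq2 1.42.0 in R 4.3.3 (Wald test, Benjamini-Hochberg adjustment, independent filtering at 0.05), the tool the study used, with edgeR 4.0.16 and limma 3.58.1 beside it. The code was tested on simulated data. Depth ran from 16591156 to 22898008 counts, so counting error matters for Epo and little for the other members. Named from each list were up to 4 genes with the smallest DESeq2 adjusted p and some regulators of Epo and HIF chosen by name. Other genes were named where a count of 5 or fewer held them, and the 3 epithelial markers were chosen after their values were seen. Ratios were tested by exact permutation. Lengths came from GENCODE for NCBIM37, matched by symbol. The alternatives were other tests, scalings and filters, leaving out each library, the replicate number as a block, and, chosen after seeing the data, edgeR without a filter, union exon lengths and an Xist covariate. 1 gene of the erythroid list is not reported here.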

Additional observations from a re-analysis of the deposited data

How the results depend on the processing

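The rise of Hif3a kept its direction and its call in every alternative that gave a p. The number of the 10 genes called fell from 2 to 1 under edgeR, limma-voom and a mean raw count of at least 10, each of which removed Epo, and ranged from 1 to 2 with 1 library left out. Epo lost its call without TfR1 knockout replicate 3 (−4.65, adjusted p 0.0766) and received no adjusted p without Control replicate 2. HIF targets called fell from 10 to 4 under edgeR and ranged from 6 (without Control replicate 1) to 12 with 1 library left out. Fibroblast markers called fell from 3 to 1 under edgeR and ranged from 2 to 3. Endothelial markers called fell from 1 to 0 under edgeR and ranged from 0 to 2. Total-count scaling gave Hif1a a call (−0.32) and turned Arnt to −0.0495. With 1 library left out, signs turned for Egln1 (−0.214 to 0.0877), Egln3 (−0.0418 to 0.431) and Vhl (−0.127 to 0.0225), and none of these values passed. The log2 difference in the Egln3 to Egln1 ratio ranged from −0.0039 to 0.61, and that in the Epas1 to Hif1a ratio from 0.37 to 0.73. Where a count moved for a reason other than a filter or fewer samples, the cause was not tested.

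Same-numbered libraries did not deviate together (correlations of −0.0378, 0.0548 and 0.0899 over 15303 genes), and the main fit did not pair them. With 3 libraries per group these values cannot show whether same-numbered libraries shared a litter or a batch. With the replicate block 2 of the 10 genes and 2172 of all genes were called, against 2 and 2463 without it. Depth limits Epo, which rests on 48 and 1 counts, and 3 libraries per group limit the rest.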

Other observations

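The genes whose pattern over the 6 libraries was nearest to that of Hif3a, by the Euclidean distance between z-scored log2(normalized counts + 1) among 13152 genes with a mean of at least 50, were Cbr3, Hpcal4, Nek6, Rhou and Igf2bp2. Cbr3, a carbonyl reductase, was nearest at a distance of 0.16, with 129, 104 and 159 normalized counts in Control and 1546, 4428 and 3463 in knockout libraries. Like Hif3a, it was lowest of its group in knockout replicate 1 and highest in knockout replicate 2. The log2 fold changes were 4.59 for Cbr3, 2.19 for Hpcal4, 0.89 for Nek6, 2.08 for Rhou and 1.45 for Igf2bp2. These genes were picked for their likeness, so their changes are a description.

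For Epo, among 16737 genes with a mean of at least 3, the nearest were Cnpy1, Olfr856-ps1, Prss12, Spag5 and Lrpap1. Cnpy1, at a distance of 0.227, had 4.95, 9.998 and 3.23 normalized counts in Control replicates 1 to 3 and at most 1.28 in a knockout library, and received no adjusted p. The distances of the other 4 genes ran from 0.275 to 0.318, and with so few Epo counts the order of these genes is loose.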
